A study of Mus musculus with 30 samples.

Results

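Chemokines, cytokines and their receptors are described here in aged mice with and without B cells and with and without transgenes that cause familial Alzheimer's disease (AD). The group holds 45 genes of 36717 genes and transcripts on the arrays, and its members were chosen by symbol: 18 chemokine ligands, 7 chemokine receptors, 11 cytokines or cytokine antagonists and 9 cytokine receptors. All 45 members had a probe, which was found through the accession that the array gives it. Each member is given as the log2 of its background-corrected Cy3 signal after quantile normalization over the 30 arrays, from the probe with the highest mean where a gene had several.

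RNA of the hippocampus and of the brain without hippocampus came from 15 mice, aged 15 to 20 months and perfused with PBS, with 1 array for each mouse and tissue and no pooling. The labels give 2 female and 3 male 3xTgAD mice, 2 female and 3 male JHT_3xTgAD mice (3xTgAD-BKO, called BKO here), 3 female WT mice and 2 female JHT mice, all with C57BL/6j as the strain. The 3xTgAD mice carry, among their alleles, human APP and tau transgenes with disease mutations, which the Thy1 promoter drives in neurons. JHT mice lack the joining segments of the Igh locus and so have no mature B cells but keep T cells, and the BKO mice are their cross with 3xTgAD. The WT females were bought from a vendor, while the AD strains were bred and aged, and the JHT mice bred and kept, in the study's own colony. Mice are named by their number in the labels: BKO males 0, 8 and 9, BKO females 6 and 7, 3xTgAD females 1 and 2, 3xTgAD males 3, 4 and 5, WT females 10, 11 and 12, and JHT females 13 and 14.

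Chemokines are small secreted proteins that draw leukocytes along a gradient by acting on receptors that couple to G proteins, while atypical receptors such as Ackr1 and Ackr3 bind chemokines without that coupling and shape their gradients. Cytokines such as IL-1β, TNF and IL-6 act on receptors of other families and are made in the brain mainly by microglia, by macrophages of its borders, and by leukocytes that have entered it. Some members are instead made at rest by brain cells, among them Cx3cl1, which neurons use to signal to microglia, Il34, a neuronal growth factor of microglia, and Il33, a nuclear alarmin of glia.

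Brain arrays were the brighter ones, with a 75th percentile of signal of 841 to 1636 against 454 to 824 for hippocampus. The scanner software called 54.0 to 63.6% of an array's spots well above background. The arrays lay on 4 slides. The hippocampal array of BKO male 0 had 432 spots marked as outliers by the software, against 102 to 160 on the other arrays, and the 3 hippocampi of its group correlated less over genes (lowest r = 0.966) than the arrays of any other group (at least 0.989). It is shown mouse by mouse for that reason. The labelled tissues fitted their markers, since 6 hippocampal genes had a mean log2 signal between 9.85 and 10.67 in the hippocampus and between 6.58 and 7.18 in the brain. Of 5 B-cell genes, 0 to 3 were well above background on any array, and the means of the BKO arrays (3.21 to 3.42 in the hippocampus) overlapped those of the 3xTgAD arrays (3.01 to 3.44), so that these arrays could not check the loss of B cells. Choroid plexus genes were far higher in the hippocampi of BKO female 7, 3xTgAD male 4 and JHT females 13 and 14 (13.49, 13.56, 13.51 and 12.54, mean of 8 genes) than in the other 11 hippocampi (at most 9.72). The mean of 7 neutrophil genes stood apart in BKO males 0 and 8 and JHT female 14 (10.04, 9.59 and 10.89 in the hippocampus and 11.28, 10.32 and 11.11 in the brain), against at most 7.63 and 8.91 in the other mice.

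The members fell into 3 ranges by how often they were measured. Of the 45 members, 25 were well above background on all 30 arrays, 18 on 1 to 29 arrays and 2, Ccr1 and Il10, on none. The 25 held the members that brain cells make at rest. Cx3cl1 was the brightest, with a log2 signal of 15.78 to 16.06 in the hippocampus and 15.51 to 15.73 in the brain. Signals of different probes cannot be set against each other as amounts of RNA, but the spread within a probe can be read. Cx3cl1, Il34, Ifngr2, Ifngr1, Il18 and Il6st, the shared subunit of the receptors for IL-6 and LIF, each spanned at most 0.98 log2 units over the 15 mice of a tissue. Ccl12, Ccl5, Cxcl13, Cxcl1 and Il1b instead spanned between 4.41 and 8.11 log2 units in the hippocampus. Several cytokines known from inflammation were rarely measured: Tnf, Ifng and the chemokine Cxcl9 were each well above background on 1 array, Il1a and its antagonist Il1rn on 2, and Il6 on 7.

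**Figure D1:**
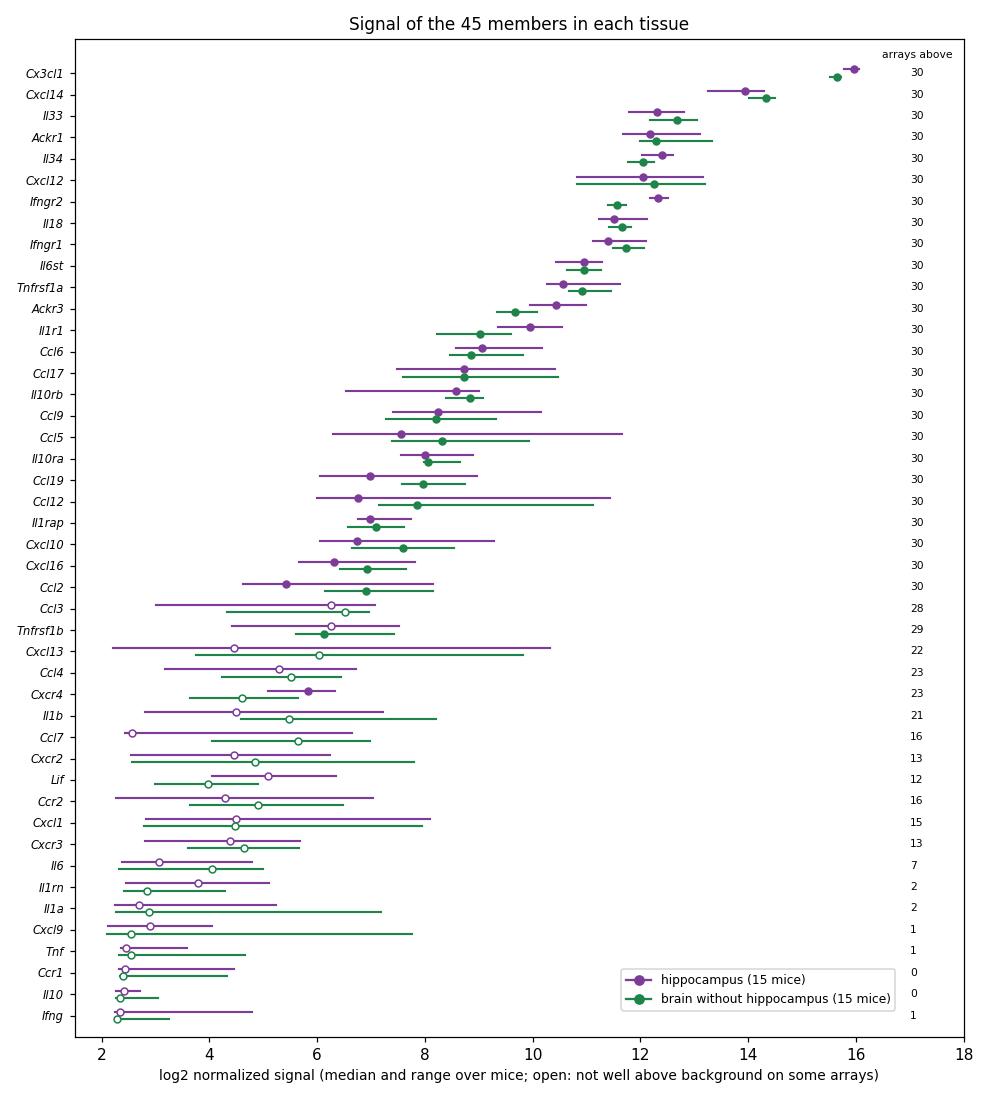
Log2 normalized signal of the 45 members (y axis, ordered by median), with the median (point) and the range (line) over the 15 mice of each tissue, and at the right the number of the 30 arrays on which the member was well above background. Filled points mark members well above background on all 15 arrays of a tissue, and Cx3cl1 stands at the top with a narrow range while Ccl12, Ccl5 and Cxcl13 have wide ranges.

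Several members lie next to each other in the RefSeq assembly GRCm38.p6. Ccl2 and Ccl7 are neighbours on chromosome 11, as are Ccl3 and Ccl4, and Ccl9 lies between Ccl5 and Ccl6 there, while Cx3cl1 and Ccl17 are neighbours on chromosome 8. RefSeq promoters were at hand for 36 of the 45 members. A kappaB motif, the site of the NF-κB factors that inflammatory signals activate, was searched on both strands of the 250 bases before each start and was found for 8 of the 36 members (22.2%), against 7.25% of all 32851 promoters. The motif of interferon-regulated promoters (GAAA, any 2 bases, GAAA), also searched on both strands, was found for 4 of the 36 (11.1%) against 2.98%, and TATAAA on the strand of the gene for 12 (33.3%) against 7.59%. A member was counted if any of its promoters matched, and Il1r1, Il1rn and Il33 have several. The shares of all promoters count each promoter by itself, so the shares are not in the same unit. Below are the 250 bases before the start of Ccl12 and Il1b, which were high in the same pair of BKO males, of Cxcl1, which was highest in one of them, of Cxcl10, which rose in the BKO brain, and of Ccl17, which was high in 3xTgAD mice. They are written 5′ to 3′ on the strand of the gene, with matches of the 3 motifs in capitals. Cxcl1 has overlapping kappaB matches on both strands, Cxcl10 has kappaB matches at 2 places after a match of the interferon motif, Ccl12 and Il1b each have a TATAAA match, and Ccl17 has none of the 3 motifs in this window. A match is a stretch of letters and no measure of binding.
Ccl12 (chr11:82101595-82101844, plus strand): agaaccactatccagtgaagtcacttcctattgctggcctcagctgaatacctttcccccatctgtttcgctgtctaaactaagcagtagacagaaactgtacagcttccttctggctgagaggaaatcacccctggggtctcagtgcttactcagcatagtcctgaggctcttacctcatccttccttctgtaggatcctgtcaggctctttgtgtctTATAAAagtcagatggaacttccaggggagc
Cxcl1 (chr5:90890995-90891244, plus strand): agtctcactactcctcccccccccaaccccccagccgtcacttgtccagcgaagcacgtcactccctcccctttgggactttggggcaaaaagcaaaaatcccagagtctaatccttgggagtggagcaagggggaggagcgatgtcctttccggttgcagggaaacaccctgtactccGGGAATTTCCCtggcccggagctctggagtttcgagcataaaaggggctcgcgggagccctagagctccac
Cxcl10 (chr5:92348890-92349139, minus strand): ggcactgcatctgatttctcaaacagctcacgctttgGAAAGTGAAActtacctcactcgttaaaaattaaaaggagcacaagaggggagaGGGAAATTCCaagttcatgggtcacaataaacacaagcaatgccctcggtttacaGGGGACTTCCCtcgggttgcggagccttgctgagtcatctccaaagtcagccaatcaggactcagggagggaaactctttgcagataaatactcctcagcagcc
Il1b (chr2:129371140-129371389, minus strand): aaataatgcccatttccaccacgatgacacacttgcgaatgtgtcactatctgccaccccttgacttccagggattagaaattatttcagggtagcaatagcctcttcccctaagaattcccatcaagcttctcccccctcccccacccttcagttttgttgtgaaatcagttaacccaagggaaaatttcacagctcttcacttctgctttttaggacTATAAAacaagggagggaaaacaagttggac
Ccl17 (chr8:94810203-94810452, plus strand): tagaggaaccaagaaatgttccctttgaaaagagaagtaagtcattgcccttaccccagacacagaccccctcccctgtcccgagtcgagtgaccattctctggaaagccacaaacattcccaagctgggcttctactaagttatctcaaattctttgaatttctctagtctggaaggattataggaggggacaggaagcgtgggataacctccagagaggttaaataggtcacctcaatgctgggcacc

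The study's main question, what the loss of B cells does in 3xTgAD mice, was asked of the members by comparing BKO with 3xTgAD mice, by sex and over both sexes. Chemokine ligands and receptors lay higher in BKO mice in most cases, in both tissues, but few members passed the test. In the brain of both sexes, Ccr2 and Cxcl10 rose and Il6 fell, so that 3 of 45 members were called, against 2.64% of all genes. In the hippocampus of both sexes no member passed limma's test with an adjusted p under 0.05, against 1.02% of all genes, while 15 members had an unadjusted p under 0.05, 12 of them higher in BKO mice. The share of all genes with such a p was 10.5%. In the brain the same count was 18 members (16 higher), against 14.5% of all genes. By role, 14 of 17 chemokine ligands measured in the hippocampus had the higher mean in BKO mice, as had 15 of 18 in the brain, with median log2 differences of 0.62 and 0.71 over all 18. The cytokines and antagonists were divided, with 4 of 8 higher in the hippocampus and 5 of 9 in the brain. Over all genes tested the median difference was 0.006 in the hippocampus and 0.001 in the brain.

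Split by sex, the males gave most of the members with a low p. In each tissue the females of both genotypes and the 3xTgAD males shared a slide, slide 1 in the hippocampus and slide 3 in the brain. The BKO males lay on slides 1 and 2 in the hippocampus and on slides 2, 3 and 4 in the brain. Between males, slide and genotype can therefore be told apart only in part. In the males 1 member was called in the hippocampus, Tnfrsf1b, against 0.847% of all genes, and 1 in the brain, Il6, against 0.961%. Unadjusted p-values under 0.05 were found for 14 members in the male hippocampus, against 18.2% of all genes, and for 17 in the male brain, against 11.6%. No member was called between the females by limma in the hippocampus (0.370% of all genes called) or in the brain (1.12%). There, 8 members of the hippocampus (16.4% of all genes) and 5 of the brain (12.9%) had an unadjusted p under 0.05. The difference between the sexes was tested as a contrast of its own by limma, and no member passed it in the hippocampus (0.0245% of all genes called) or the brain (0.101%). Unadjusted, 4 members of the hippocampus (21.2% of all genes) and 5 of the brain (8.74%) fell under 0.05. The calls of males rest on which mice are in the group: without BKO male 9, 7 members were called in the male hippocampus and 9 in the male brain, and 3 and 10 over both sexes. The shares of all genes called without it were 4.03% and 1.75% in the males and 1.44% and 3.58% over both sexes. Without it the sex difference was called for 3 members of the hippocampus, Ccl12, Ifngr1 and Tnfrsf1b, and for 4.56% of all genes.

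**Figure D2:**
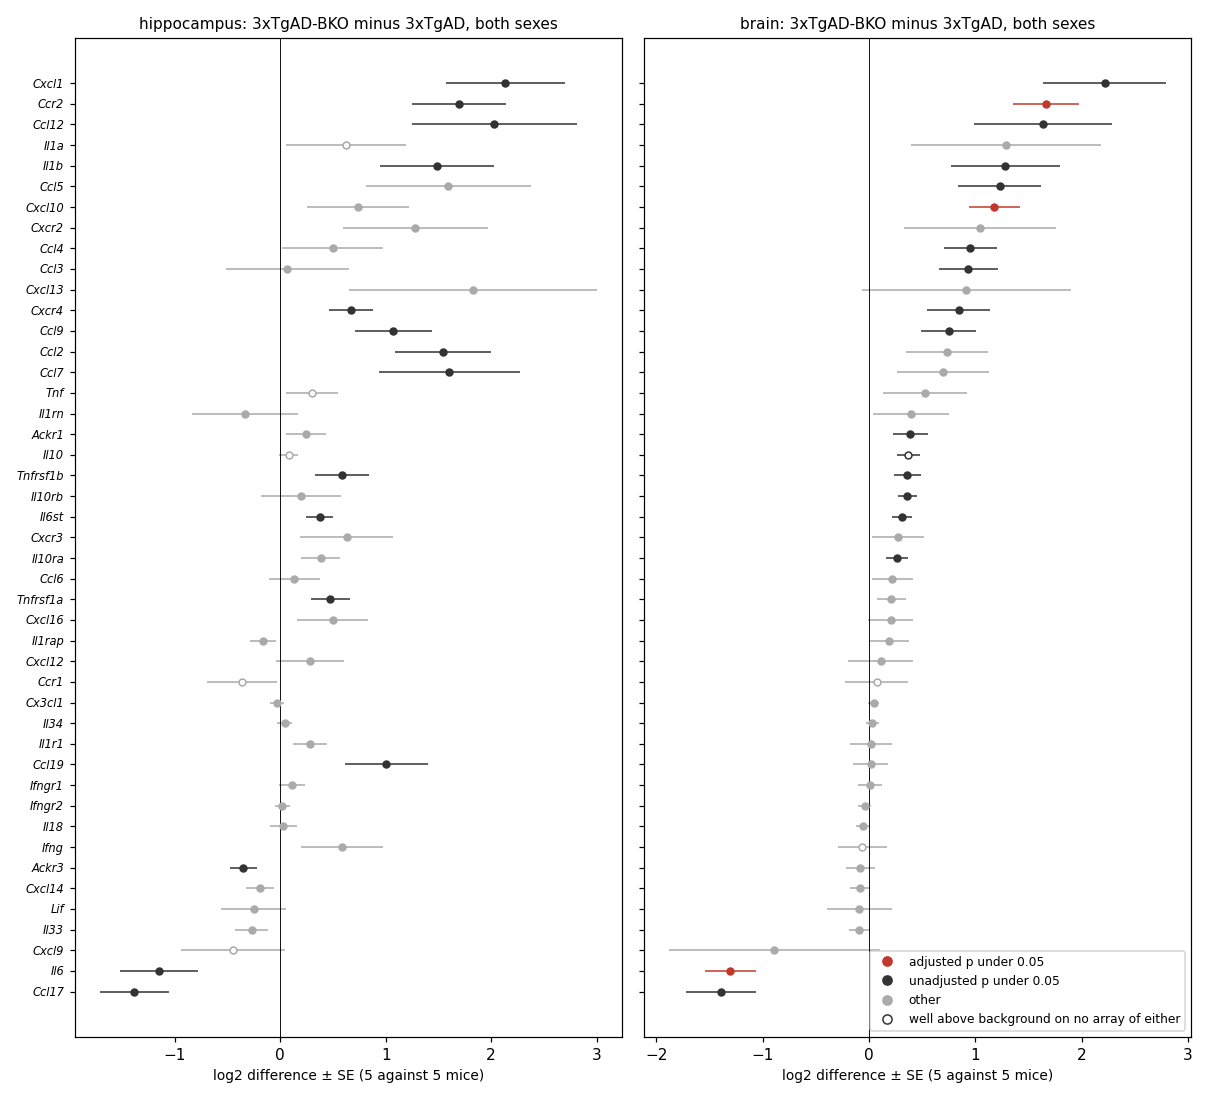
Log2 difference of BKO minus 3xTgAD mice over both sexes for each member (y axis, ordered by the difference in the brain) in the hippocampus (left) and in the brain (right), with limma's SE, 5 against 5 mice. Red points passed an adjusted p of 0.05 (Ccr2, Cxcl10 and Il6 in the brain), black points an unadjusted p of 0.05, and open points mark members that neither genotype measured above background.

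The means of some lists of marker genes of other cells also differed between these groups. The mean of 8 endothelial genes was 11.15 to 11.54 in the BKO hippocampi and 10.73 to 11.01 in the 3xTgAD hippocampi, with no overlap, and 11.08 to 11.62 and 10.87 to 11.15 in the brains. The mean of 5 genes of border macrophages, of which 3 or 4 were well above background, was 6.46 to 7.57 in BKO and 5.34 to 6.37 in 3xTgAD hippocampi, and overlapped in the brains. The mean of 4 T-cell genes, of which 1 to 3 were well above background, was 4.96 to 6.34 in BKO and 4.16 to 4.75 in 3xTgAD brains, with no overlap, and overlapped in the hippocampi. The neutrophil mean was 6.95 to 11.28 in BKO and 5.48 to 8.91 in 3xTgAD brains. The mean of the 8 microglial genes overlapped in both tissues. Over both sexes limma called 1 of the 8 endothelial genes in each tissue, against 1.02% and 2.64% of all genes. None of the border macrophage, T-cell, neutrophil or microglial genes was called. WT endothelial means were 11.08 to 11.44 in the hippocampus and 11.20 to 11.56 in the brain, above those of all 3xTgAD mice. The WT T-cell means of the brain, 4.60 to 5.70, overlapped both groups. In tissue RNA, more cells of a type and more RNA per cell cannot be told apart, and the part of these cells in the members' levels was not tested.

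Ccl17, a ligand of CCR4 that draws T helper and regulatory T cells, set the 3xTgAD mice apart from every other mouse but 1. In the hippocampus its log2 signal was 10.42 and 10.14 in the 3xTgAD females and 10.02, 9.84 and 10.07 in the 3xTgAD males. It was 7.85, 7.58 and 7.49 in the WT females and 7.77 and 8.73 in the JHT females. In the BKO males 0, 8 and 9 it was 8.46, 8.35 and 9.88, and in the BKO females 6 and 7 it was 9.14 and 8.03. So the 3xTgAD mice formed a narrow band above WT and JHT, while BKO males 0 and 8 and female 7 lay within the range of WT and JHT, female 6 lay between the bands and male 9 lay within the range of the 3xTgAD mice. The brain gave the same order of the 5 BKO mice from highest to lowest except for males 0 and 8, with 10.25 in male 9, 9.28 in female 6, 8.56 in male 8, 8.50 in male 0 and 8.34 in female 7. The brains of 3xTgAD mice had 10.22 to 10.47 and those of WT mice 7.59 to 7.85.

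Between 3xTgAD and WT females, Ccl17 was higher by 2.63 (SE 0.47, adjusted p = 0.0334) in the hippocampus and by 2.67 (SE 0.46, adjusted p = 0.0233) in the brain on the log2 scale. It was the only member called in either tissue there, and leaving out any 1 of the 5 females ended both calls, with adjusted p-values of 0.0723 to 0.142 in the hippocampus and 0.0541 to 0.107 in the brain and differences of similar size. Without female 1 or 2 the 3xTgAD group holds 1 mouse, which is then assumed to vary like the other groups. Between BKO and 3xTgAD mice of both sexes it was lower by a similar amount in both tissues, with differences of -1.39 (SE 0.33, adjusted p = 0.104) in the hippocampus and -1.39 (SE 0.33, adjusted p = 0.0559) in the brain, which did not pass. With the mouse as a replicate block over all 30 arrays these 2 differences passed, with adjusted p-values of 0.0237 and 0.0276. The brain difference also passed in the limma fit of all 30 arrays without that block (adjusted p = 0.0318), so that its passing does not rest on the block. Within the slide that held both genotypes, BKO mice 0, 6 and 7 lay -1.55 from the 5 3xTgAD mice in the hippocampus, and BKO mice 6, 7 and 8 lay -1.61 from them in the brain, each time with no overlap. The 3xTgAD and WT arrays lay on different slides in both tissues, so that slide and genotype cannot be told apart by their arrays alone, and with slide as a random block the hippocampal p-value was 0.118 and that of the brain 0.0312. Its neighbour Cx3cl1 did not share this pattern, with 15.90 to 16.03 in 3xTgAD, 15.78 to 16.03 in BKO and 15.95 to 16.00 in WT hippocampi. Ccl22, the other ligand of CCR4, was well above background on 3 hippocampal arrays, all from 3xTgAD mice, and on no brain array.

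**Figure D3:**
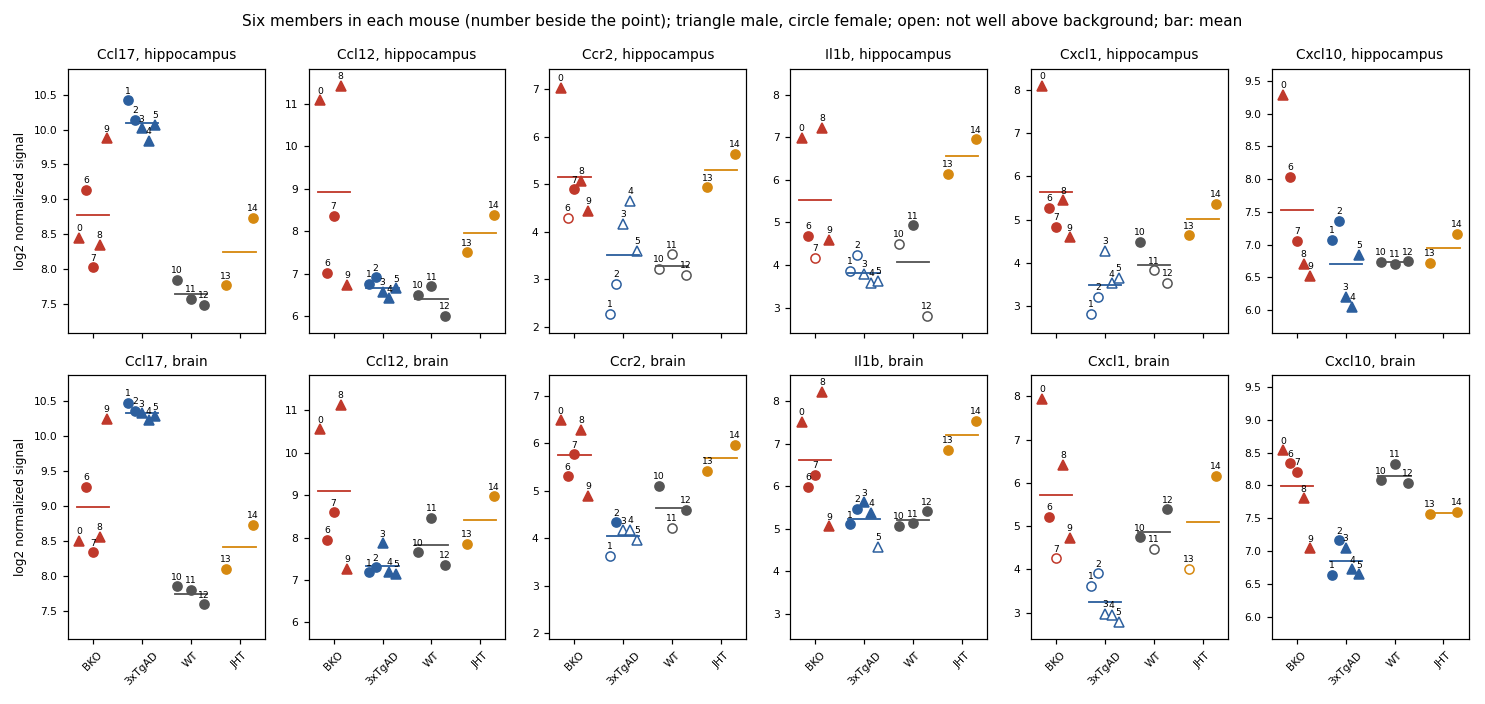
Log2 normalized signal (y axes, one scale for both tissues of a member) of Ccl17, Ccl12, Ccr2, Il1b, Cxcl1 and Cxcl10 in every mouse by genotype, with the hippocampus above and the brain below, triangles for males, circles for females, open symbols for arrays not well above background and bars for the means. Ccl17 shows 3xTgAD mice between 9.84 and 10.47, and Ccl12 shows BKO males 0 and 8 at 10.55 or above while every other mouse lies at or below 8.97.

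Ccr2, the receptor of CCL2 that monocytes use to enter tissue, rose in the BKO brain. Its signal there was 6.48, 6.28 and 4.90 in BKO males 0, 8 and 9 and 5.30 and 5.77 in BKO females 6 and 7. In the 3xTgAD brains it was 3.64 and 4.34 in the females and 4.17, 4.18 and 3.97 in the males, where only female 2 was well above background. All 5 BKO brains lay above all 5 3xTgAD brains, and the difference was 1.66 (SE 0.31, adjusted p = 0.0198) over both sexes. In the hippocampus, 4 of 5 BKO arrays and no 3xTgAD array were well above background, with values of 4.30 to 7.04 and 2.27 to 4.65, which overlapped, a bound of at least 1.57-fold (limma adjusted p = 0.143). With the mouse as a replicate block the hippocampal difference passed as well. Leaving out 3xTgAD female 1 raised the adjusted p of the brain to 0.0741, and leaving out BKO female 7 to 0.0596.

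Cxcl10, an interferon-induced ligand of CXCR3, rose in the BKO brain too, although the groups touched. Its signal was 8.54, 7.81 and 7.04 in the BKO males and 8.34 and 8.21 in the BKO females, against 7.05, 6.72 and 6.65 in the 3xTgAD males and 6.64 and 7.16 in the 3xTgAD females. Only BKO male 9 lay within the range of the 3xTgAD mice, and the difference was 1.18 (SE 0.24, adjusted p = 0.0289). The WT brains lay at 8.04 to 8.33, within the range of the BKO brains, and the 3xTgAD females differed from WT by -1.25 (SE 0.34, adjusted p = 0.144), which did not pass. The call in the BKO brain did not hold in 1 fit over all 30 arrays, where the adjusted p was 0.168, or 0.159 with the mouse as a replicate block added, and 6 of the 10 leave-one-out fits took it above 0.05 (0.00295 to 0.103). In the hippocampus the difference was 0.74 (SE 0.48, adjusted p = 0.682), and the highest value was that of BKO male 0, 9.29.

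No other ligand passed the test over both sexes, and several were far higher in some BKO mice than in others. Cxcl1, which draws neutrophils through CXCR2, was well above background on all 5 BKO hippocampi, with 8.09, 5.45 and 4.59 in the males and 5.28 and 4.84 in the females. The 5 3xTgAD hippocampi had 2.83 to 4.27 and none was well above background, so the difference is a bound of at least 2.30-fold (limma adjusted p = 0.143). In the brain it was 7.94 in male 0 and 6.42 in male 8, and the bound between the males was at least 3.76-fold (adjusted p = 0.0627). Every BKO value of Cxcl1 lay above every 3xTgAD value in each tissue, although the main fit made no call. With all mice kept, the difference between male brains passed in the limma fit of all 30 arrays (adjusted p = 0.0259). It also passed after the filter on dim probes (adjusted p = 0.045). Without BKO male 0 the hippocampal difference over both sexes passed (adjusted p = 0.0319).

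Ccl12, a mouse ligand of CCR2, split the BKO mice. BKO males 0 and 8 had 11.08 and 11.43 in the hippocampus and 10.55 and 11.13 in the brain. BKO male 9 had 6.73 and 7.27, and the BKO females had 7.02 and 8.36 in the hippocampus and 7.94 and 8.60 in the brain. The 3xTgAD mice had 6.42 to 6.91 and 7.15 to 7.86. The difference between males was 3.21 (SE 0.99, adjusted p = 0.143) in the hippocampus, where male 9 lay next to the highest 3xTgAD male (6.65). Without male 9 it passed (adjusted p = 3.87e-04), but that fit keeps only BKO males 0 and 8, which had been seen to be high. It is no separate support for a difference between the genotypes. The next highest mouse in each tissue was JHT female 14, with 8.39 and 8.97.

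Ccl2, the main monocyte attractant, lay in the hippocampus at 8.14, 6.51 and 5.73 in the BKO males and 5.83 and 6.61 in the BKO females, all above the 3xTgAD range of 4.63 to 5.43, with a difference of 1.54 (SE 0.46, adjusted p = 0.200) over both sexes. In the brain Ccl2 overlapped between the genotypes (6.85 to 8.13 and 6.15 to 7.52). Its neighbour Ccl7 was well above background in BKO male 0 and BKO female 7 and in no other hippocampus. Ccl5, made by T cells and natural killer cells among others, was 8.27 to 9.66 in BKO and 7.40 to 7.93 in 3xTgAD brains with no overlap, a difference of 1.23 (SE 0.39, adjusted p = 0.158). In the hippocampus the Ccl5 value of BKO male 0 was 11.65, next to 8.03, 8.65, 8.14 and 7.15 in BKO mice 6, 7, 8 and 9. That mouse also had the highest mean of 4 T-cell genes, 6.76 in the hippocampus against at most 5.39 elsewhere, and the highest Cxcl13, a B-cell attractant, with 10.32 and 9.83. Ccl4 and Ccl3, chemokines that microglia make, differed by 0.95 (SE 0.25, adjusted p = 0.0804) and 0.94 (SE 0.27, adjusted p = 0.126) in the brain. Of 28 members well above background on all 10 BKO arrays, BKO male 0 had the highest BKO value for 17 in the hippocampus and for 12 in the brain.

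Il1b, which encodes the IL-1β that the study stained for, followed the same few mice. In the hippocampus it was 6.98 and 7.22 in BKO males 0 and 8 and 4.60, 4.69 and 4.17 in BKO mice 9, 6 and 7. It was well above background in no 3xTgAD hippocampus (3.58 to 4.25), so the difference over both sexes is at least 2.15-fold (limma adjusted p = 0.333), and between males at least 3.54-fold (adjusted p = 0.106). In the brain it was 7.52 and 8.21 in males 0 and 8 and 5.06, 5.99 and 6.26 in mice 9, 6 and 7, against 4.59 to 5.63 in 3xTgAD mice, a difference of 1.28 (SE 0.51, adjusted p = 0.274). The JHT females 13 and 14 had 6.15 and 6.95 in the hippocampus and 6.85 and 7.53 in the brain, and the WT females 2.81 to 4.94 and 5.08 to 5.42.

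The mean of the 7 neutrophil genes, granule and alarmin genes such as S100a8, Ngp and Ltf, stood high on the same arrays. It was 10.04, 9.59, 5.84, 6.33 and 6.88 in the hippocampi of BKO mice 0, 8, 9, 6 and 7, 7.63 and 10.89 in the JHT hippocampi, 5.09 to 5.96 in 3xTgAD and 5.49 to 5.52 in WT hippocampi. Cxcr2, the chemokine receptor by which neutrophils are known, was well above background in BKO males 0 and 8 and in both JHT females in each tissue, and besides in BKO female 7 and WT female 10 in the hippocampus and in 3xTgAD mice 2, 3 and 4 in the brain. Ccl12 stood apart in males 0 and 8 but not in JHT female 14, whose neutrophil mean was as high (8.39 in the hippocampus). The mice had been perfused, but 5 of 6 red blood cell genes were well above background in every brain, with means of 8.04 to 9.54 in BKO and 8.36 to 9.96 in 3xTgAD brains. The part of neutrophils in these levels was not tested.

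**Figure D4:**
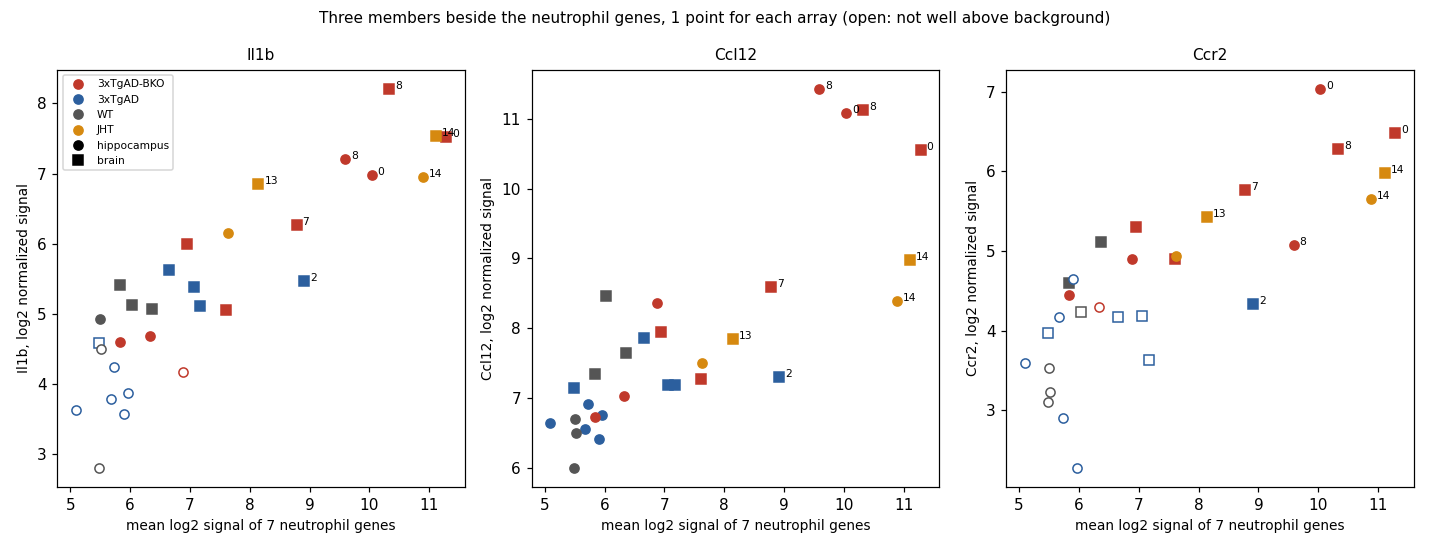
Log2 normalized signal of Il1b, Ccl12 and Ccr2 (y axes) against the mean log2 signal of 7 neutrophil genes (x axes), 1 point for each array, coloured by genotype, with circles for hippocampus, squares for brain and open symbols for arrays not well above background. BKO males 0 and 8 and JHT female 14 lie at the right with neutrophil means of 9.59 or more, and for Ccl12 only the BKO males among them lie at 10.55 or above.

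Of the other cytokines, Il6 was lower in the BKO brain, and Il10, Tnf and Ifng were hardly measured. Il6 in the brain was 4.59, 4.34 and 4.41 in the 3xTgAD males and 4.44 and 4.64 in the 3xTgAD females, well above background in 4 of the 5. It was 2.33, 2.43 and 2.59 in the BKO males and 4.01 and 3.85 in the BKO females, on no array well above background. The fitted difference over both sexes was -1.30 (SE 0.24, adjusted p = 0.0179), but since the BKO side has only an upper limit, the fall is by at least 1.02-fold over both sexes and by at least 1.06-fold in the males (adjusted p = 0.0118). WT brains had 4.23, 4.04 and 3.96, none well above background, so the 3xTgAD values are only just above the limit of measurement. The JHT brains, also without B cells, were divided, and 1 of the 2 was well above background. The highest Il6 of all 15 brains was that of a JHT mouse, while the other JHT brain lay below every 3xTgAD and WT brain. After normexp background correction of the median signals the difference over both sexes was -0.26 and both calls were lost (adjusted p = 0.0853 over both sexes and 0.0646 in males). The call over both sexes was also lost without 3xTgAD female 2 (0.0645), and that between males without BKO male 0 (0.0531) or 3xTgAD male 3 (0.0541). Il10 was well above background on no array, Tnf only in the brain of BKO male 0 (4.66), and Ifng only in the hippocampus of BKO male 9 (4.80). In the BKO brain, the means of the receptor subunits Il10rb and Il6st lay 0.36 (SE 0.09, adjusted p = 0.0666) and 0.31 (SE 0.10, adjusted p = 0.146) above 3xTgAD.

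Tnfrsf1b, the TNF receptor that microglia and other immune cells carry, rose in the male hippocampus. Its signal was 7.52, 6.87 and 6.27 in BKO males 0, 8 and 9, and 4.43, 5.37 and 5.16 in 3xTgAD males 3, 4 and 5, of which male 3 was not well above background. The groups did not overlap, and the difference was 1.90 (SE 0.32, adjusted p = 0.0312). In the females the order was turned, with 5.30 and 5.10 in BKO and 6.06 and 5.77 in 3xTgAD hippocampi, and the difference between the sexes was -2.61 (SE 0.51, adjusted p = 0.0731), which did not pass here and passed with the mouse as a replicate block over the 30 arrays (adjusted p = 0.0130). Leaving out any 1 of the 6 males except BKO male 9 raised the adjusted p of the male difference to between 0.0530 and 0.0819. WT hippocampi had 6.41, 6.34 and 6.28, above all 5 3xTgAD mice. The hippocampal arrays of the 3xTgAD mice, the BKO females and BKO male 0 lay on slide 1. Those of BKO males 8 and 9 and of the WT mice lay on slide 2, so that slide and these differences can be told apart only in part. On slide 1, BKO mice 0, 6 and 7 had 5.10 to 7.52, which overlapped the 4.43 to 6.06 of the 3xTgAD mice. The ubiquitous TNF receptor Tnfrsf1a differed by 0.71 (SE 0.23, adjusted p = 0.165) between males.

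In 3xTgAD against WT females, which asks what the alleles of the AD strain change, Ccl17 was the 1 member called in each tissue. The share called over all genes was 0.746% in the hippocampus and 1.15% in the brain. Of 38 members measured in the brain, 26 had the lower mean in 3xTgAD, with a median difference over all 45 of -0.14 against 0.001 over all genes. The hippocampus had no such tilt, with 17 members higher and 18 lower and a median of -0.02. Cell markers differed between the same brains. The endothelial mean was 10.87 and 10.90 in the 3xTgAD females and 11.20 to 11.56 in WT. The neutrophil mean was 7.17 and 8.91 in the 3xTgAD females and 5.84 to 6.37 in WT, and the T-cell mean overlapped. The part of these cells in the tilt was not tested. In the brain, Il10rb lay -0.53 (SE 0.13, adjusted p = 0.0898), Tnfrsf1b -0.62 (SE 0.18, adjusted p = 0.189) and Ccl4 -0.94 (SE 0.35, adjusted p = 0.328) from WT. Ccl4 was 5.08 and 5.09 in the 3xTgAD females and 6.44, 5.77 and 5.85 in the WT females. Il6st had the lower mean in 3xTgAD in both tissues, with differences of -0.54 (SE 0.18, adjusted p = 0.253) and -0.44 (SE 0.13, adjusted p = 0.206). Cxcl13 was well above background in no WT hippocampus (2.21 to 2.24) and in 3 of the 5 3xTgAD hippocampi of both sexes (2.43 to 6.25). The comparison of BKO and 3xTgAD mice shares the 3xTgAD females of the comparison with WT.

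JHT against WT females asks for the loss of B cells without the transgenes, with all arrays of a tissue on 1 slide. The WT mice were bought and the JHT mice bred in the study's colony, so that source and loss of B cells cannot be told apart here. The contrast of all B-cell-deficient mice below shares this limit in part. No member was called by limma in the hippocampus (0.0926% of all genes) or in the brain (0.161%), and 6 (7.83% of all genes) and 6 members (6.30%) had an unadjusted p under 0.05. Il1b, Ccr2 and Ccl6 were among them in both tissues, and Ccr1, on no array well above background, in the brain. Il1b had the higher mean in JHT mice, with differences of 2.47 (SE 0.77, adjusted p = 0.521) in the hippocampus and 1.99 (SE 0.72, adjusted p = 0.687) in the brain. Ccr2 was well above background in both JHT hippocampi (4.94 and 5.65) and in no WT hippocampus (3.23, 3.53 and 3.10), a bound of at least 1.74-fold (limma adjusted p = 0.527). Ccl6, a ligand of CCR1 that myeloid cells make, differed by 0.81 (SE 0.34, adjusted p = 0.613) and 0.89 (SE 0.27, adjusted p = 0.522). Il34 in the hippocampus and Il33 in the brain had the lower mean, with differences of -0.35 (SE 0.10, adjusted p = 0.489) and -0.45 (SE 0.14, adjusted p = 0.526). Both JHT hippocampi also held high choroid plexus genes, as given above, and the part of that tissue was not tested.

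Taking both pairs of strains together, the 7 B-cell-deficient mice (BKO and JHT) were set against the 8 mice with B cells (3xTgAD and WT), as a contrast chosen after the levels of Ccr2 had been seen. In the brain Ccr2 was the 1 member called, against 1.62% of all genes, with a difference of 1.46 (SE 0.26, adjusted p = 0.0205), and in the hippocampus none was called, against 0.613%. At an unadjusted p under 0.05 there were 18 members in the hippocampus, 15 of them higher without B cells (8.92% of all genes). Ccr2 was well above background in 6 of 7 hippocampi without B cells and in 0 of 8 with them, and in 7 of 7 and 3 of 8 brains. Its hippocampal difference was at least 1.61-fold (limma adjusted p = 0.0650). Cxcl1 and Ccl2 were higher in each of the 7 hippocampi without B cells than in any of the 8 others, with differences of 1.77 (SE 0.46, adjusted p = 0.167) and 1.45 (SE 0.37, adjusted p = 0.165). Il1b differed by 1.81 (SE 0.44, adjusted p = 0.134) and 1.52 (SE 0.42, adjusted p = 0.122) in the hippocampus and the brain. Of the 8 hippocampi with B cells, 1 was well above background for Cxcl1 and 1 for Il1b, so that these hippocampal differences rest on signals near background. Without BKO male 0, 3 members passed in the hippocampus (Ccl19, Ccr2 and Cxcl1), against 0.681% of all genes, and without male 9, 5 passed, against 1.22%. The median of the 7 neutrophil genes' differences was 2.75 and 2.52 in the same contrast, with 1 of the 7 called in each tissue. Since this contrast holds the mice of the comparisons above, it is no separate evidence for them.

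Of the 120 other genes of these pathways, 5 rose and 2 fell between BKO and 3xTgAD brains of both sexes, and 1 rose in the hippocampus, Il15. That is 5.83% and 0.833% of them, against 2.64% and 1.02% of all genes. Il12rb1, a subunit of the IL-12 receptor, was 9.39 to 10.16 in 3xTgAD, 8.30 to 9.31 in BKO and 7.67 to 7.95 in WT brains. It fell by 1.18 (SE 0.19, adjusted p = 0.00815) in BKO against 3xTgAD brains and was higher in 3xTgAD than in WT females by 2.25 (SE 0.27, adjusted p = 0.00212) in the brain and 2.70 (SE 0.39, adjusted p = 0.0140) in the hippocampus. Il15, which sustains natural killer and memory T cells, had the reverse order, with no 3xTgAD brain well above background (2.41 to 4.60) and all 3 WT brains at 5.54 to 5.74. In BKO brains it was 6.22, 5.58 and 4.42 in males 0, 8 and 9 and 5.47 and 5.42 in females 6 and 7, at least 2.15-fold above 3xTgAD (limma adjusted p = 0.00421). Male 9 was the 1 BKO mouse whose Il15 was not well above background in the brain, and it had the highest Ccl17 of the BKO mice. Ccl17, Il15 and Il12rb1 all lie on chromosome 8, and the genetic background of the strains around these genes was not tested. The scavenging receptor Ackr4 and the binding protein Il18bp were higher in the BKO brain, by 0.91 (SE 0.16, adjusted p = 0.0141) and 0.43 (SE 0.10, adjusted p = 0.0475), as was Ccrl2 by 0.42 (SE 0.09, adjusted p = 0.0320), while Ccr8 fell by 0.59 (SE 0.12, adjusted p = 0.0303). Il12a was also called there but was well above background in neither group.

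Between the tissues, 7 members were higher in the hippocampus and 11 higher in the brain, so that 18 of 45 were called against 51.1% of all genes, and 24 had an unadjusted p under 0.05 against 55.3%. This fit does not pair the tissues of a mouse, and with the mouse as a replicate block 20 members were called, against 52.0% of all genes. The 7 were Cxcr4, Lif, Il1r1, Ackr3, Ifngr2, Il34 and Cx3cl1. Cxcr4, the receptor of CXCL12 and a gene of granule cells in the dentate gyrus, was higher by 1.13 (SE 0.15, adjusted p = 1.94e-06), and it was well above background in all 15 hippocampi and 8 of 15 brains. Il1r1, the signalling receptor of IL-1, was higher by 0.95 (SE 0.11, adjusted p = 1.82e-07), Ackr3 by 0.77 (SE 0.08, adjusted p = 3.64e-08) and Ifngr2 by 0.75 (SE 0.04, adjusted p = 8.87e-13). Each of these 4 was higher in the hippocampus of all 15 mice. Lif, a cytokine of the IL-6 family, was higher by 1.11 (SE 0.18, adjusted p = 2.83e-05), but was well above background in 10 hippocampi and 2 brains. Cx3cl1 and Il34 were higher by 0.30 (SE 0.03, adjusted p = 1.45e-07) and 0.34 (SE 0.04, adjusted p = 2.34e-07). Cx3cl1 was higher in the hippocampus of all 15 mice and Il34 of 14. On the side of the brain, Ccl2 differed by -1.27 (SE 0.25, adjusted p = 2.24e-04), Ccl19, which draws T cells and dendritic cells through CCR7, by -0.96 (SE 0.18, adjusted p = 1.12e-04) and Cxcl16 by -0.71 (SE 0.17, adjusted p = 0.00112), each lower in the hippocampus of 14 of 15 mice. Ccl7, Il1b and Ccr2, which were not measured on every array of either tissue, differed by -2.13 (SE 0.34, adjusted p = 1.69e-05), -1.15 (SE 0.31, adjusted p = 0.00399) and -0.74 (SE 0.23, adjusted p = 0.0101). Il33, Cxcl14 and Tnfrsf1b were lower in the hippocampus, with differences of -0.36, -0.35 and -0.33 (limma adjusted p = 4.84e-04, 1.61e-04 and 0.0256). The Tnfrsf1b difference was -0.07 (adjusted p = 0.561) when arrays were scaled to their 75th percentile and -0.12 (adjusted p = 0.185) after normexp, and leaving out mouse 2, 7, 8 or 12 also ended the call (0.0516 to 0.0672).

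The tissues lay almost wholly on different slides, and only the brain array of BKO male 0 shared a slide with hippocampal arrays of BKO males. On that slide its Ifngr2 was 11.58 against 12.24 and 12.32 in the hippocampi of males 8 and 9, its Il1r1 9.21 against 10.55 and 10.01, and its Ccl2 8.13 against 6.51 and 5.73. Its Cxcl14 (14.02) was close to theirs (13.88 and 13.98). With the slide as a random block, 13 members were called, against 30.9% of all genes, and Cxcl14 and Tnfrsf1b were not among them.

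**Figure D5:**
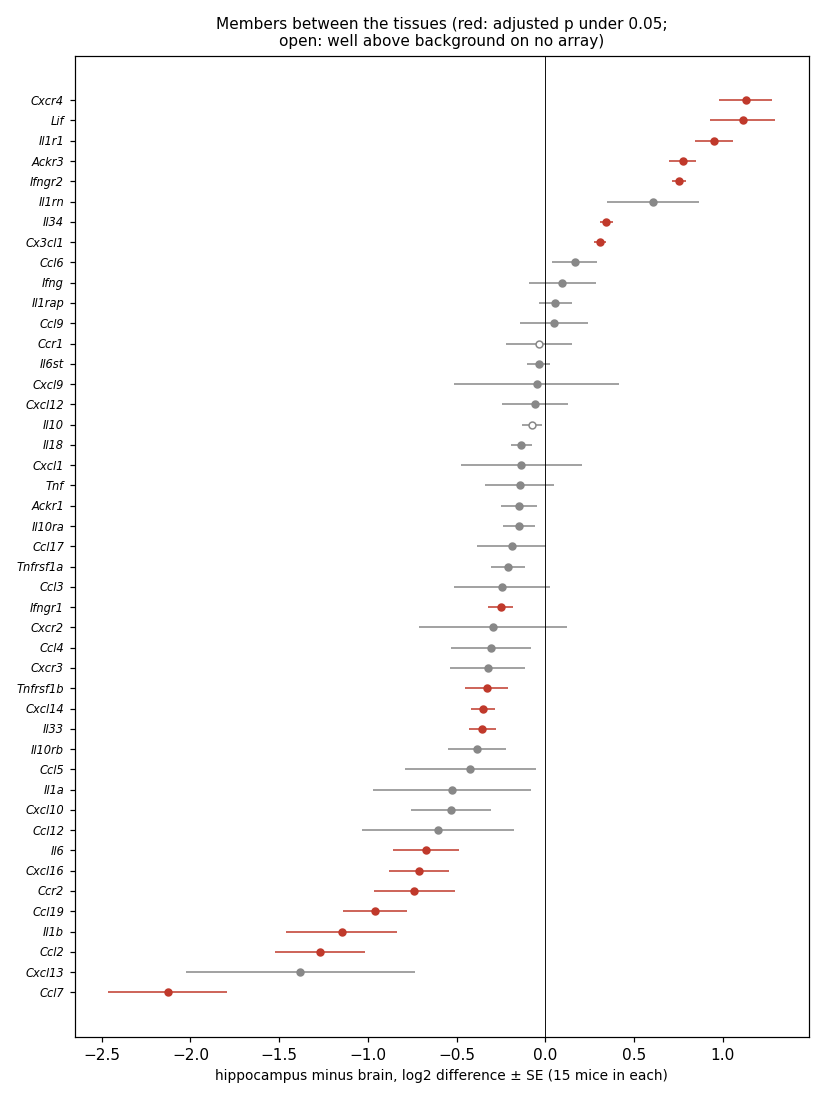
Log2 difference of hippocampus minus brain for each member (y axis, ordered by the difference), with limma's SE over 15 mice in each tissue. Red points passed an adjusted p of 0.05, with Cxcr4 at 1.13 on the right, and Ccl7 at the far left, which was well above background on 2 hippocampal arrays.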

How the data were processed

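Total RNA of 15 mice was measured in 2 tissues on 30 single-colour Agilent arrays, with 1 array for each mouse and tissue. The authors deposited the scanner's background-subtracted Cy3 intensity for each spot, and a series table of normalized values that is treated as a score; per the methods, signals were quantile normalized and log2 transformed and the brightest probe was kept for a gene. Starting from the deposited intensity, 3671 control spots and outlier spots were left out, spots of a probe were averaged, and the 30 arrays were quantile normalized on the log2 scale. Within each array the deposited score followed the log of the deposited intensity (r at least 0.99999), centred and scaled for the array (medians of -0.31 to -0.20), and it was used only as an alternative. Accessions were named through RefSeq (GRCm38.p6), which gave a symbol to 28325 of 55681 probes and left 36717 genes and transcripts.

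Groups were compared with limma 3.58.1 in R 4.3.3, with the p-values adjusted by Benjamini-Hochberg over all genes and transcripts. The methods name no test for the arrays in particular, and their general unpaired t-test was an alternative. The fit was tested on simulated data. A member well above background on no array of a group has only a bound, given as "at least N-fold": the bright group's mean against, on each dim array, the higher of the probe's own signal and the lowest signal that was well above background. The mouse numbers give 15 pairs of arrays, whose deviations correlated with a median of 0.105 (-0.179 to 0.24, over 0.1 in 8 of 15 pairs), and the mouse was an alternative block. Slides were also tried as a block. The number of mice in each group limits the precision.

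The members, lists and comparisons were chosen with earlier results of these data known. All members are given by level and detection. Differences are given for members past an adjusted p of 0.05, for the 6 of lowest p among those with an unadjusted p under 0.05 and well above background on all arrays of a group, for the stained cytokines, and between tissues for the 12 largest among the called members that all arrays of 1 tissue or the other measured. Further differences in the text, among them those of Ccl12, Ccl2, Cxcl1 and Tnfrsf1a between genotypes and Lif, Ccl7, Il1b and Ccr2 between tissues, were chosen after their values were seen. Motifs were searched in RefSeq promoters. Part of the strain's description is not reported here.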

Additional observations from a re-analysis of the deposited data

Results flagged for a closer look

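In 8 of 116 groups of 5 arrays, 1 mouse stood apart from the rest by Dixon's criterion, which chance meets in about 1 group in 20. In BKO hippocampi, Cxcl1 of male 0 was 8.09 with the next mouse at 5.45, Il10rb of male 0 was 6.53 with the next at 8.58, and Il1r1 of male 8 was 10.55 with the next at 10.04. In BKO brains, Ifngr2 of male 8 was 11.71 with the next at 11.58. In 3xTgAD hippocampi, Cxcl14 of male 4 was 14.07 with the next at 13.93. In 3xTgAD brains, Ccl12 of male 3 was 7.86 with the next at 7.30, Ifngr1 of male 3 was 11.57 with the next at 11.73, and Il1rap of female 1 was 6.71 with the next at 7.09. The array of male 0 on which Cxcl1 and Il10rb stood apart is the one with 432 outlier spots, and Cxcl1 was also highest in the brain array of that mouse.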

How the results depend on the processing

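Of 2101 alternative values of 117 results, 1948 kept their direction and their side of the threshold, 49 no longer passed, 104 passed newly and 0 changed direction. Moves of over 1.5 times in the numbers of members called, and some smaller ones, were as follows. With all 30 arrays in 1 fit, 2 members were called in the male hippocampus, 2 over both sexes and 1 for the sex difference there, 2 between 3xTgAD and WT hippocampi, 4 in the B-cell comparison of the hippocampus, 1 in the female brain, 2 in the male brain and 2 in the B-cell comparison of the brain, against 5.16, 2.99, 8.23, 2.86, 2.04, 0.967, 0.915 and 1.44% of all genes in that order. With the mouse as a replicate block, 2 were called over both sexes and 1 for the sex difference in the hippocampus, and 3 over both sexes in the brain (Ccl17, Ccr2 and Il6), against 3.03, 8.30 and 2.14% of all genes. With the slide as a block, 0 were called between 3xTgAD and WT hippocampi, 1 and 3 in the B-cell comparison of hippocampus and brain, and 5 over both sexes in the brain, against 0.210, 0.675, 2.09 and 2.89%. After normexp, 0 were called in the male brain, 5 over both sexes and 2 between 3xTgAD and WT brains, against 1.19, 2.88 and 1.55%. The filter on dim probes gave 1 in the B-cell comparison of the hippocampus, 2 in the male brain and 4 over both sexes in the brain, against 0.961, 1.57 and 3.52%. The methods' t-test on the same values after Benjamini-Hochberg gave 0 in each comparison of genotypes that had a call. Without adjustment it gave 6, 2, 10, 11, 8 and 16 in the hippocampus (females, males, both sexes, 3xTgAD and WT, JHT and WT, B-cell comparison) and 5, 9, 17, 11, 4 and 12 in the brain. The shares of all genes were, in the same order, 13.3, 10.8, 6.77, 9.27 and 6.05% in the hippocampus and 17.7, 8.32, 12.8, 5.76 and 9.38% in the brain, leaving out 3xTgAD and WT, where 4947 and 4768 of 36717 genes passed. Leaving out each mouse in turn gave ranges of 0 to 1, 0 to 7, 0 to 3, 0 to 0 and 0 to 5 in the hippocampus (females, males, both sexes, 3xTgAD and WT, B-cell comparison), 0 to 3 for its sex difference, and 0 to 9, 1 to 10, 0 to 1, 0 to 2 and 1 to 8 in the brain (males, both sexes, 3xTgAD and WT, JHT and WT, B-cell comparison); between the tissues it gave 17 to 24. In the same order, 0.626 to 1.81%, 0.349 to 4.03%, 0.757 to 1.44%, 0.368 to 0.972% and 0.384 to 1.22% of all genes were called in the hippocampus, 0.0109 to 4.56% for its sex difference, 0.507 to 1.75%, 1.66 to 3.58%, 0.814 to 1.30%, 0.188 to 1.12% and 0.967 to 2.51% in the brain and 47.7 to 54.6% between the tissues. The other alternatives between the tissues gave 13 members (slide as a block, 30.9% of all genes) to 24 (deposited scores, 50.8%). Leaving out BKO male 9 gave the upper ends in the males, over both sexes and in the B-cell comparison, and leaving out BKO male 0 that between the tissues. The cause of these shifts was not tested. Signals near background limit Ccr1, Il10, Cxcl9, Ifng, Tnf, Il1a, Il1rn and Il6 most, each measured on 7 arrays or fewer.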
